A study of Mus musculus with 8 samples.

Results

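The 10 genes described here belong to the repair route by which oxidized or deaminated cytosine can be replaced by cytosine. They are the DNA glycosylases Tdg, Mbd4, Smug1, Neil1, Neil2 and Neil3, the abasic-site endonuclease Apex1, and the small stress proteins Gadd45a, Gadd45b and Gadd45g. The genes were chosen by name, and all 10 were found among the 23234 genes listed for each library. Their transcript levels were compared in mouse embryos from 4 groups of 2 libraries each. Wild-type embryos came from oocytes of f/f females, which carry the floxed allele and were not described as carrying Cre. Tet3-null embryos came from oocytes of Zp3-Cre, f/- females, in which the Cre transgene is driven by a promoter of growing oocytes and the other allele is null. Oocytes of both kinds were taken after superovulation and fertilized in vitro with CAST/EiJ sperm. All embryos therefore have a CAST/EiJ father and received a Tet3 allele from the sperm. A 2-cell library was made from 10 pooled embryos at 30 h after fertilization, and a blastocyst library from 7 pooled embryos at 96 h. Whether replicate libraries came from different mothers or collection days was not stated, so every p-value here reflects the spread between samples alone, and that spread may be technical.

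Tdg is the glycosylase that removes 5-formylcytosine and 5-carboxylcytosine, the products of Tet dioxygenases, and also thymine mispaired with guanine. Mbd4 removes thymine or uracil opposite guanine in CpG sites, Smug1 removes uracil and 5-hydroxymethyluracil, and the Neil enzymes remove oxidized bases. The empty sugar that a glycosylase leaves is cut by Apex1, after which a polymerase and a ligase restore the strand. Gadd45 proteins have no known enzyme activity of their own. They bind Pcna, Cdkn1a, the Cdk1 and cyclin B1 complex and the kinase Map3k4, and they have been proposed to bring repair enzymes to methylated DNA.

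The unit of level is FPKM, which is scaled by gene length and library total, so levels can be set side by side between genes. Summed over all genes, FPKM ran from 600495 to 634816 in 2-cell libraries and from 924556 to 956335 in blastocysts. These sums were not made equal before testing, so small differences between stages depend on the unit. Read totals are unknown. The ratios of low values put the depth of the libraries between 1.0 and 1.292 times that of wild-type replicate 1 of the same stage, and both Tet3-null blastocyst libraries, at 1.275 and 1.292, were deeper than the wild-type ones, at 1.0 and 1.125. One library stood apart. Tet3-null 2-cell replicate 2 listed 7101 genes at 0, against 5370 to 6080 in the other 7 libraries. Its depth estimate, 1.007, is also the weakest. The most common ratio held 17 of the 684 genes compared, against 73 to 215 genes for the other estimates. Results that rest on this library are given with and without it. Tet3 itself was at 10.8 and 7.54 FPKM in wild-type 2-cell embryos and at 3.28 and 4.41 in Tet3-null, so both Tet3-null libraries were below both wild-type ones, as 34.9% of all genes tested were. The log2 change was -1.06 (SE 0.25) and was not called (adjusted p = 0.069, limma), so this is a weak check of the labels. In blastocysts Tet3 was under 1 FPKM in all 4 libraries, which leaves little for such a check. All 6 of the 2-cell markers found in the files reached 1 FPKM in at least 1 library of 2-cell embryos of either genotype, and their sum was 1.66 FPKM or less in wild-type and 3.42 or less in Tet3-null blastocysts. Of 9 blastocyst markers, 8 were above 1 FPKM in all 4 blastocyst libraries. Sox17, the other one, was at 0.671 and 1.30 FPKM in wild-type blastocysts, against 0.699 and 0.781 in Tet3-null. In 2-cell embryos of either genotype 7 of the 9 also reached 1 FPKM in at least 1 library, and the list summed to between 190 and 213 FPKM. Nanog was lower without overlap in blastocysts than in 2-cell embryos, at 123 against 143 FPKM in wild-type and 141 against 159 in Tet3-null. Every other marker of the list was higher without overlap in blastocysts in both genotypes, Tfap2c only slightly. Of 8 cumulus and granulosa markers only Tnfaip6 reached 1 FPKM in any library, with Amh at 0 throughout and Fshr at 0.02 FPKM or less. The list summed to between 15.1 and 31.2 FPKM in 2-cell embryos and to under 1 FPKM in blastocysts. Of 5 blood markers, Hbb-b1 was at 0 in all libraries and Ptprc in all but 1, where it was at 0.0037 FPKM, and the list summed to between 0.961 and 29.7 FPKM, mostly Cd52. The 5 sperm markers summed to between 4.86 and 23.1 FPKM, and the 8 oocyte markers to between 1550 and 2421 in 2-cell embryos and under 5 FPKM in blastocysts.

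In wild-type 2-cell embryos the Gadd45 genes were the most abundant of the 10. Gadd45b was at 98.6 ± 4.82 FPKM (SD, n = 2), Gadd45a at 60.6 ± 7.20 and Gadd45g at 41.7 ± 1.83. Apex1 followed at 13.7 ± 0.186, Neil3 at 8.10 ± 1.56 and Mbd4 at 5.42 ± 0.142 FPKM, and no library of one of these overlapped with the next in order. Smug1 at 1.47 ± 0.255 and Neil2 at 1.32 ± 0.261 FPKM overlapped, and Neil1 and Tdg were at or near 0. The order was different in wild-type blastocysts. There Gadd45g led at 73.8 ± 1.18 FPKM, followed by Apex1 at 38.0 ± 4.11, Neil1 at 10.6 ± 4.17 and Tdg at 7.16 ± 0.327. Gadd45b at 4.48 ± 3.03 FPKM overlapped with Mbd4 at 4.06 ± 0.469. Smug1 at 1.99 ± 0.539, Gadd45a at 1.72 ± 0.407 and Neil3 at 1.57 ± 1.29 FPKM overlapped with one another in turn, and Neil2 was lowest at 0.132 ± 0.187.

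**Figure D1:**
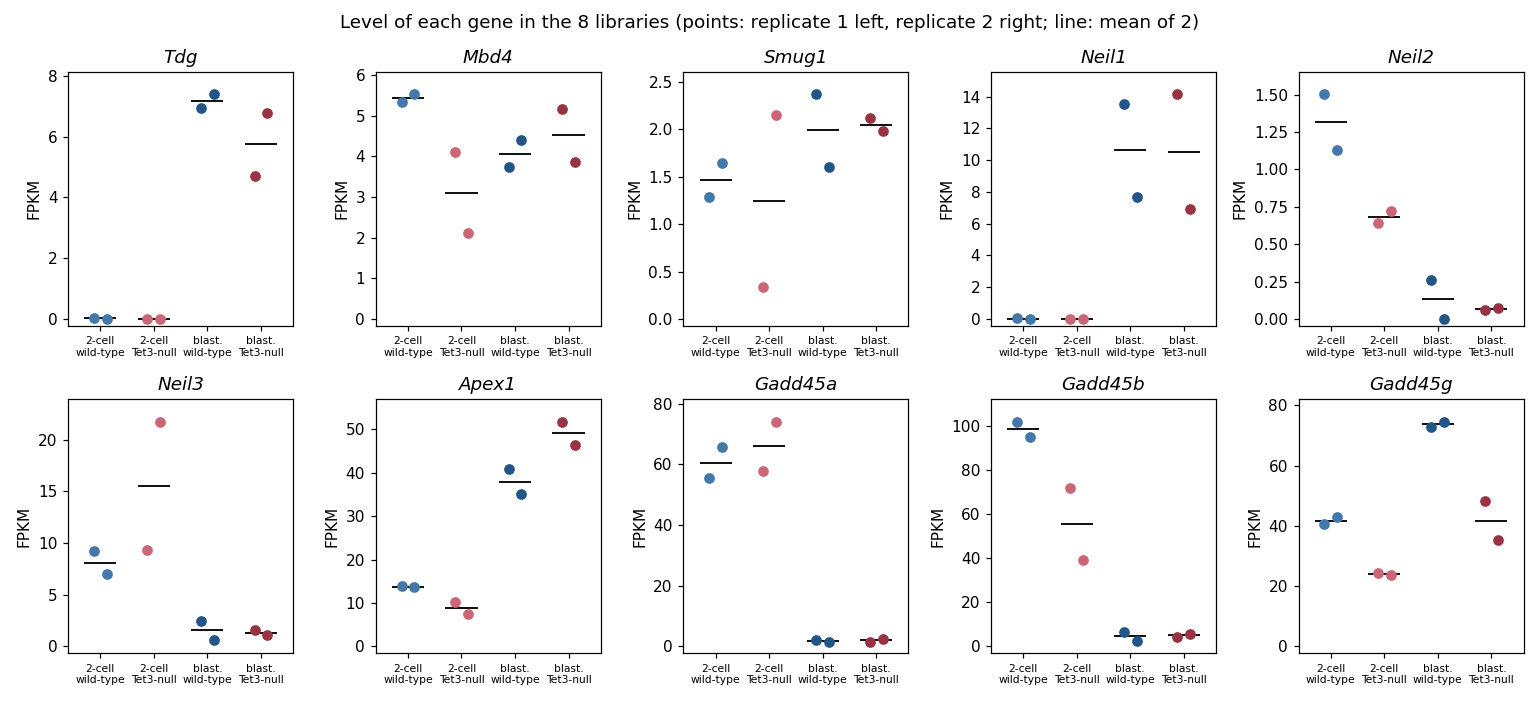
FPKM (vertical axis, linear, each panel on its own scale) of each of the 10 genes in the 4 groups; points are single libraries, with replicate 1 left and replicate 2 right, and lines are means of 2. Gadd45a and Gadd45b are high only at the 2-cell stage, Tdg and Neil1 only in blastocysts, and Gadd45g is lower in both Tet3-null libraries than in the wild-type pair at each stage.

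The first comparison asked whether loss of Tet3 from the oocyte changed these genes in the embryo. No member passed the test at either stage (limma, adjusted over the 13549 genes tested, adjusted p at most 0.05), where 2.72% of genes were called at the 2-cell stage and 0.0664% in blastocysts. At an unadjusted limma p under 0.05 there were 4 of 10 members at the 2-cell stage, where 23.7% of all genes tested passed, and 1 of 10 in blastocysts, where 5.46% did. The median log2 change of the 10 genes was -0.36 at the 2-cell stage and 0.0031 in blastocysts, beside -0.17 and -0.02 over all genes tested. Of the 10 genes, 10 passed the filter of 1 FPKM in at least 2 libraries, but Tdg and Neil1 did so only through blastocysts and Neil2 only through wild-type 2-cell embryos. The sums of some marker lists also differed with genotype at the 2-cell stage. The 2-cell markers summed to between 1023 and 1238 FPKM in wild-type against 1373 to 1882 in Tet3-null, and the sperm markers to between 7.39 and 7.96 against 11.8 to 23.1, mostly through Prm2. The oocyte sums overlapped, at 1550 to 1825 FPKM against 1809 to 2421. Within the oocyte list Oosp1 was higher without overlap in Tet3-null, Zp3 was lower without overlap, and the other 6 genes overlapped. The part of these markers in the 2-cell differences was not tested.

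Gadd45g, the family member named for its induction by growth arrest and DNA damage like the other two, was lower in Tet3-null embryos at both stages, without passing the adjusted test. At the 2-cell stage Tet3-null libraries held 24.2 and 23.6 FPKM and wild-type libraries 40.5 and 43.0. At the blastocyst stage Tet3-null libraries held 48.4 and 35.2 FPKM and wild-type libraries 73.0 and 74.6. Both Tet3-null libraries were below both wild-type libraries at each stage, and it was the only member for which this held. Among all genes tested, 9.18% were lower without overlap at both stages. The ratio of means was 1.75-fold at the 2-cell stage and 1.77-fold in blastocysts.

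The log2 change of Gadd45g on the log2(FPKM + 1) scale, which understates the change of weakly expressed genes, was -0.78 (SE 0.17, 95% interval -1.19 to -0.37) in 2-cell embryos and -0.82 (SE 0.17, -1.23 to -0.41) in blastocysts. These intervals are for 1 gene and are not adjusted for the number of genes. Adjusted over all genes, p was 0.0632 and 0.484 (limma), so neither passed. At the 2-cell stage the change was -0.61 relative to the median of all genes. It was -0.76 without Tet3-null replicate 2 and -0.80 without Tet3-null replicate 1. Some blastocyst markers also differed with genotype at the later stage. The 9 blastocyst markers summed to between 4390 and 4709 FPKM in wild-type against 2974 to 3246 in Tet3-null, mostly through the keratins Krt8, at 1078 and 958 against 571 and 527, and Krt18. Krt8, Krt18 and Atp1b1 were lower without overlap in Tet3-null, Nanog and Gata6 were higher without overlap, and Cdx2, Tfap2c, Aqp3 and Sox17 overlapped. In pooled embryos fewer cells of a type and less RNA per cell cannot be told apart, and the part of these markers in the Gadd45g difference was not tested.

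Gadd45b, a close relative that is also induced by inflammatory signals, was at 72.0 and 39.1 FPKM in the Tet3-null libraries, against 102 and 95.2 for wild-type. Both Tet3-null libraries were lower, but they differed from each other by more than the wild-type ones did. Its log2 change was -0.88 (SE 0.42, 95% interval -1.88 to 0.12, adjusted p = 0.260, limma), and -0.45 without Tet3-null replicate 2 (adjusted p = 0.627). Gadd45a, a known p53 target, was at 57.7 and 74.1 FPKM in the Tet3-null libraries, against 55.5 and 65.7 for wild-type. The groups overlapped, and the interval of the log2 change ran from -0.44 to 0.67. In blastocysts both genes were low in every library. Gadd45b was at 4.29 and 5.78 FPKM without maternal Tet3, against 6.62 and 2.34 with it, and Gadd45a at 1.46 and 2.44 against 2.00 and 1.43.

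Of the base excision genes, 4 did not overlap between genotypes at the 2-cell stage. With Gadd45b and Gadd45g this made 5 of 10 genes lower without overlap, where 34.9% of all genes tested were, and 1 of 10, Neil3, higher, where 12.6% were. Mbd4 was at 4.11 and 2.11 FPKM in the Tet3-null libraries, against 5.32 and 5.52 for wild-type, a log2 change of -0.69 (SE 0.27, adjusted p = 0.181, limma). It was -0.33 without Tet3-null replicate 2, the lower library, and -1.05 without replicate 1. Neil2 was at 0.641 and 0.721 FPKM in the Tet3-null libraries, against 1.5 and 1.13 for wild-type, with a log2 change of -0.46 (SE 0.19, adjusted p = 0.196). Neil2 reached the filter only in the wild-type libraries of this stage, so a lower value in Tet3-null was built into its being tested.

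Neil3, the Nei-like glycosylase that prefers single-stranded DNA and acts on interstrand crosslinks, was at 9.36 and 21.8 FPKM in the Tet3-null libraries, against 9.20 and 6.99 for wild-type. Only Tet3-null replicate 2 lay far above the wild-type libraries. The log2 change was 0.77 (SE 0.46, 95% interval -0.31 to 1.85, adjusted p = 0.345, limma), 0.20 without Tet3-null replicate 2 and 1.33 without replicate 1. Smug1 was at 0.341 and 2.15 FPKM in the Tet3-null libraries, against 1.29 and 1.65 for wild-type, so the Tet3-null libraries lay on both sides of the wild-type ones. Its log2 change was -0.26 (95% interval -1.16 to 0.64). The change was -0.88 without Tet3-null replicate 2 and turned to 0.35 without Tet3-null replicate 1.

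Tdg, the glycosylase that follows Tet oxidation, was under 0.05 FPKM in all 4 libraries of the 2-cell stage. Wild-type libraries held 0.0409 and 2.19e-05 FPKM and Tet3-null libraries 1.56e-05 and 2.18e-05, so no genotype difference could be measured there. Neil1 was listed at 0 in 3 of these libraries and at 0.0690 FPKM in wild-type replicate 1. In blastocysts Tdg was at 4.71 and 6.77 FPKM in the Tet3-null libraries, against 6.93 and 7.39 for wild-type, lower without overlap like 25.3% of all genes tested. The log2 change was -0.29 (95% interval -0.76 to 0.17, adjusted p = 1, limma). Tdg has the pseudogenes Tdg-ps and Tdg-ps2, neither of which is listed in the files. How reads shared with them were assigned is not given in the sources used here, so the Tdg values are uncertain.

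Apex1 values differed in opposite directions at the stages. In 2-cell embryos it was at 10.2 and 7.42 FPKM without maternal Tet3, against 13.8 and 13.6 with it. In blastocysts it was at 51.8 and 46.4 FPKM without, against 40.9 and 35.1 with it. Both Tet3-null libraries were below both wild-type libraries at the 2-cell stage and above them in blastocysts, where 19.0% of all genes tested were higher without overlap. Opposite directions without overlap at the stages were found for 9.26% of genes. The log2 change was -0.60 (SE 0.18, adjusted p = 0.119, limma) at the 2-cell stage and 0.36 (SE 0.18, adjusted p = 1) in blastocysts. The 2-cell change was -0.39 without Tet3-null replicate 2 and -0.80 without replicate 1. The difference of these changes was 0.96 (SE 0.26, 95% interval 0.35 to 1.58, unadjusted p = 0.00766), which did not pass over all genes (adjusted p = 0.205). It was 0.76 without Tet3-null 2-cell replicate 2, and 1.17 without replicate 1, which leaves only the library that stood apart in that group.

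The libraries do not mark strand, and the span of Apex1 overlaps that of Tmem55b, listed as Pip4p1 in newer annotation, on the other strand. Tmem55b was at 15 and 9.06 FPKM in 2-cell embryos without maternal Tet3, against 17.6 and 15 with it, and at 52.0 and 48.3 against 43.2 and 39.7 in blastocysts. Its levels were thus close to those of Apex1 in all 4 groups, and reads of the shared stretch cannot be told apart. The log2 changes of Tmem55b by genotype were -0.44 and 0.27, neither called. The other overlaps with a listed gene had low partners. E230016M11Rik, opposite Gadd45a, was at 2.66 FPKM or less, and Glt8d2, opposite Tdg, at 0.456 or less.

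**Figure D2:**
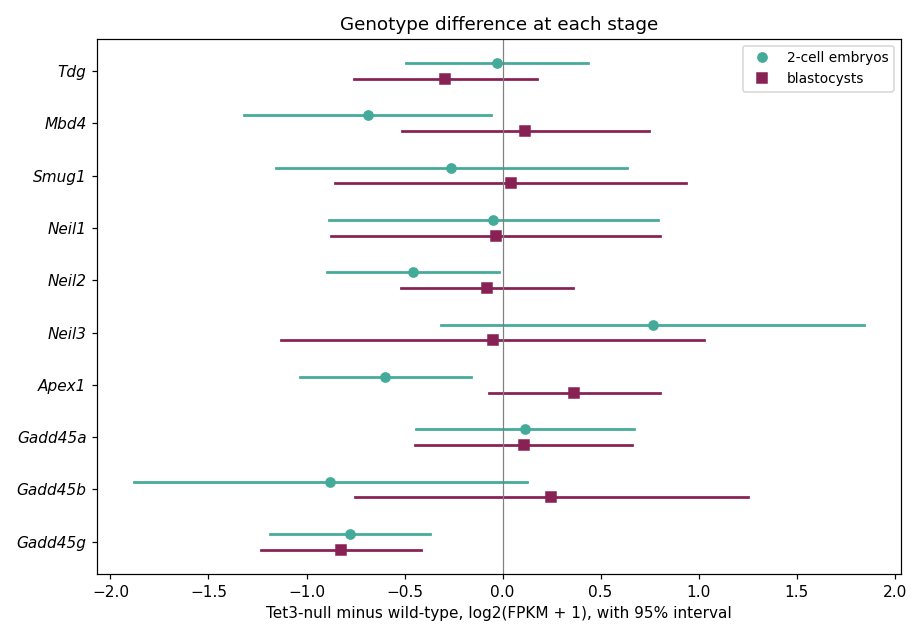
Log2 change of each gene between Tet3-null and wild-type (horizontal axis, difference of log2(FPKM + 1), bars are unadjusted 95% intervals) in 2-cell embryos (circles) and blastocysts (squares). Gadd45g lies near -0.8 at both stages, while Apex1 lies at -0.60 and 0.36; no gene passed the adjusted test.

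The difference of the genotype effect between stages was tested for all 10 genes. No member was called, where 0.140% of genes were, and 1 of 10, Apex1, had an unadjusted limma p under 0.05, where 14.4% of all genes did. For Gadd45g the difference was -0.04 (SE 0.25, 95% interval -0.62 to 0.53). For Gadd45b it was 1.13 (SE 0.60, -0.29 to 2.54), for Mbd4 0.80 (SE 0.38, -0.09 to 1.70) and for Neil3 -0.82 (SE 0.65, -2.34 to 0.71). Without Tet3-null 2-cell replicate 2 the differences were 0.70 for Gadd45b, 0.44 for Mbd4 and -0.25 for Neil3. Without replicate 1 Mbd4 was at 1.16 and Neil3 at -1.38. In the fit of all libraries, the intervals of these 3 genes hold both no difference and differences of over 1.5 on this scale.

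The next comparison followed the genes from the 2-cell stage to the blastocyst, which spans the loss of maternal transcripts and the start of cell lineages. Of the 10 members, 4 rose and 4 fell in wild-type (adjusted p at most 0.05), where 35.8% of all genes tested rose and 38.4% fell, and the same counts held in Tet3-null, where 38.9% and 35.1% did. In both genotypes Tdg, Neil1, Apex1 and Gadd45g rose, Gadd45a, Gadd45b, Neil2 and Neil3 fell, and Mbd4 and Smug1 were not called. Over all genes tested, 33.4% rose in both genotypes and 32.4% fell in both. For Tdg, Neil1 and, in wild-type, Neil2 the direction was fixed by the filter, which they passed only through the groups where they are high, so their calls add nothing to their levels. Since most genes changed with stage, a call as such does not set the members apart.

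Within the Gadd45 family the members went separate ways. Gadd45a fell 35.3-fold in wild-type, to 1.72 FPKM from 60.6 (log2 change -4.51, SE 0.24, adjusted p = 4.74e-06, limma), and by -4.51 in Tet3-null. Gadd45b fell 22.0-fold in wild-type, to 4.48 FPKM from 98.6 (log2 change -4.30, SE 0.42, adjusted p = 8.25e-05), and by -3.18 in Tet3-null. Gadd45g rose 1.77-fold, from 41.7 to 73.8 FPKM in wild-type (log2 change 0.81, SE 0.17, adjusted p = 0.00415), and by 0.76 in Tet3-null (adjusted p = 0.00531). FPKM summed over all genes was also higher in blastocysts, at 924556 to 956335 against 600495 to 634816, so the size of this rise depends on the unit. How much of it is left when these sums are made equal was not tested. As a share of the summed FPKM of the 3 genes, Gadd45g was 20.4% and 21.1% in wild-type 2-cell embryos, against 15.7% and 17.2% without maternal Tet3. In blastocysts the shares were 89.4% and 95.2% for wild-type, against 89.4% and 81.1%. The sum itself was 198 and 204 FPKM in wild-type 2-cell embryos, 154 and 137 in Tet3-null, 81.6 and 78.4 in wild-type blastocysts and 54.1 and 43.4 in Tet3-null.

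**Figure D3:**
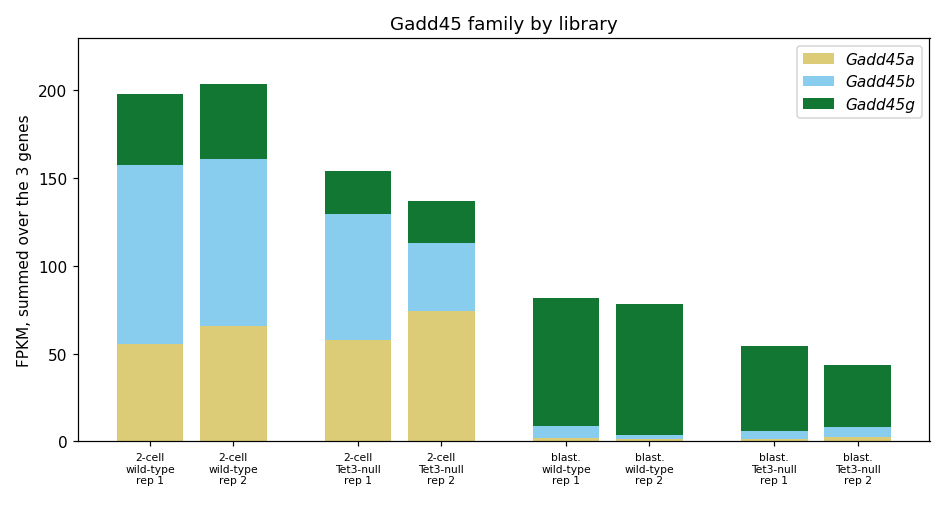
Stacked FPKM of Gadd45a, Gadd45b and Gadd45g (vertical axis, linear from 0) in each of the 8 libraries. Gadd45a and Gadd45b make up most of the bar in 2-cell embryos and Gadd45g in blastocysts, and the Tet3-null bars are lower than the wild-type bars of the same stage.

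The upstream sequences of the 3 Gadd45 genes and of Tdg are shown because the Gadd45 genes part ways with stage while Tdg is listed near 0 in 2-cell embryos, a level that is uncertain as said above. Each is the 250 bases before the RefSeq start in build GRCm38.p6, written 5′ to 3′ on the gene's strand, with CG dinucleotides, the sites that can carry methylation, in capitals. The files were made on mm9, and these coordinates are not of that build. The windows are chr6:67037408-67037657 on the minus strand for Gadd45a, chr10:80929841-80930090 on the plus strand for Gadd45b, chr13:51846425-51846674 on the plus strand for Gadd45g and chr10:82629588-82629837 on the plus strand for Tdg.
Gadd45a: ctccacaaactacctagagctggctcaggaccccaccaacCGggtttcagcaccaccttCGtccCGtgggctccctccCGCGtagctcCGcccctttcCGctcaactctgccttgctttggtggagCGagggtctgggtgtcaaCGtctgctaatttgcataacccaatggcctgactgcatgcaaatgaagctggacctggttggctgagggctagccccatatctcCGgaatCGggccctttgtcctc
Gadd45b: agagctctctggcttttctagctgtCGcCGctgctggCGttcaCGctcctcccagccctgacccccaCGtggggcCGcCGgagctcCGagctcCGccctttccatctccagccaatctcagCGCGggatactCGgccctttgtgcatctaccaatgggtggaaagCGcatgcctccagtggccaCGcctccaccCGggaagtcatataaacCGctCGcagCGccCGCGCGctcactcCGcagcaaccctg
Gadd45g: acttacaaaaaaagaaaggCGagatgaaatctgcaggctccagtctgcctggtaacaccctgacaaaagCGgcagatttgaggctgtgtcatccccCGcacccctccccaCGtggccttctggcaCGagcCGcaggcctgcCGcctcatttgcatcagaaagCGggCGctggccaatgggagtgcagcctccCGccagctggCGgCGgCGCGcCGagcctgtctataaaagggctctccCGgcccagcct
Tdg: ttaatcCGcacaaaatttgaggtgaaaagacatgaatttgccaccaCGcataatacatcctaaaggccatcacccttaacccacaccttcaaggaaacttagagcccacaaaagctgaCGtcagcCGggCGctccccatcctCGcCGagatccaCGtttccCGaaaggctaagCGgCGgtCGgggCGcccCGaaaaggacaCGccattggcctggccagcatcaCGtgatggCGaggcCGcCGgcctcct
The windows hold 11 CG dinucleotides for Gadd45a, 22 for Gadd45b, 16 for Gadd45g and 19 for Tdg, beside a median of 6 and an upper quartile of 16 over 32841 promoters of the same length. A TATA box, searched as TATAAA on either strand, is in the Gadd45b and Gadd45g windows and in 12.4% of all. A CCAAT box, searched as CCAAT on either strand, is in all 4 windows and in 33.9% of all. The GC box GGGCGG is in the Gadd45a and Gadd45b windows and in 32.7% of all, and the E-box CACGTG in those of Gadd45b, Gadd45g and Tdg and in 6.0% of all. The cAMP response element TGACGTCA is in the Tdg window and in 1.5% of all. Of the 10 genes, 9 were matched to a promoter, with Neil2 the exception. Among the other 5, the window of Apex1 held 28 CG dinucleotides, of Mbd4 22, of Smug1 14, of Neil1 12 and of Neil3 8. The promoter windows of genes that rose (Tdg, Neil1, Apex1, Gadd45g) thus held 12 to 28, and those of genes that fell (Gadd45a, Gadd45b, Neil3) 8 to 22. Matches of letters are a description and show no binding, and methylation was not measured in these libraries.

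Among the glycosylases the listed levels of Tdg and Neil1 went from near 0 to several FPKM or more. For Tdg these levels are uncertain, since the assignment of reads shared with its pseudogenes is not known. Tdg reached 7.16 ± 0.327 FPKM in wild-type blastocysts (log2 change 3.0, SE 0.20, adjusted p = 1.29e-05, limma) and 5.74 ± 1.46 in Tet3-null (2.74, SE 0.20, adjusted p = 1.7e-05). Neil1 was at 13.6 and 7.66 FPKM in wild-type blastocysts, against 14.1 and 6.93 in Tet3-null, so it differed more between replicates than between genotypes. Its log2 change was 3.44 (SE 0.36, adjusted p = 0.000104) in wild-type and 3.45 in Tet3-null. Both genes were tested only because blastocysts express them, so a rise was the one outcome the filter allowed.

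Neil3 and Neil2 went the other way. Neil3 fell 5.17-fold in wild-type, from 9.20 and 6.99 FPKM to 2.48 and 0.657 (log2 change -1.91, SE 0.46, adjusted p = 0.00690, limma). In Tet3-null it went from 9.36 and 21.8 FPKM to 1.54 and 1.12 (-2.73, SE 0.46, adjusted p = 0.00119). Neil2 fell from 1.32 to 0.132 FPKM in wild-type (-1.04, SE 0.19, adjusted p = 0.00168), the one direction the filter allowed, and from 0.681 to 0.0651 in Tet3-null (-0.66, adjusted p = 0.0143), but the call in Tet3-null was lost without either blastocyst library of that genotype (adjusted p = 0.063 and 0.056). Of the summed FPKM of the 6 glycosylases, Neil3 made up 45.7% to 81.4% in the 2-cell libraries and 3.03% to 8.45% in blastocysts. Without Tet3-null 2-cell replicate 2 its highest 2-cell share was 64.8%. Tdg and Neil1 were each at 0.396% or less at the 2-cell stage, while in blastocysts Neil1 was at 33.4% to 51.0% and Tdg at 17.0% to 34.0%.

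Mbd4 and Smug1 were not called between the stages. Mbd4 was at 5.32 and 5.52 FPKM in wild-type 2-cell embryos and 3.73 and 4.39 in blastocysts (log2 change -0.35, 95% interval -0.98 to 0.28). In Tet3-null it was at 4.11 and 2.11, then 5.17 and 3.85 FPKM (0.46, -0.17 to 1.09). This change was 0.82 without 2-cell replicate 1. Smug1 was at 2.37 and 1.61 FPKM in wild-type blastocysts, against 2.12 and 1.98 in Tet3-null, with log2 changes of 0.27 (-0.63 to 1.16) and 0.57 (-0.33 to 1.47). The Smug1 change in Tet3-null was 1.18 without 2-cell replicate 2. Apex1 rose 2.77-fold in wild-type, from 13.7 to 38.0 FPKM (1.40, SE 0.18, adjusted p = 0.000356), and 5.58-fold in Tet3-null, from 8.81 to 49.1 (2.37, SE 0.18, adjusted p = 2.44e-05), with the overlap with Tmem55b given above.

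**Figure D4:**
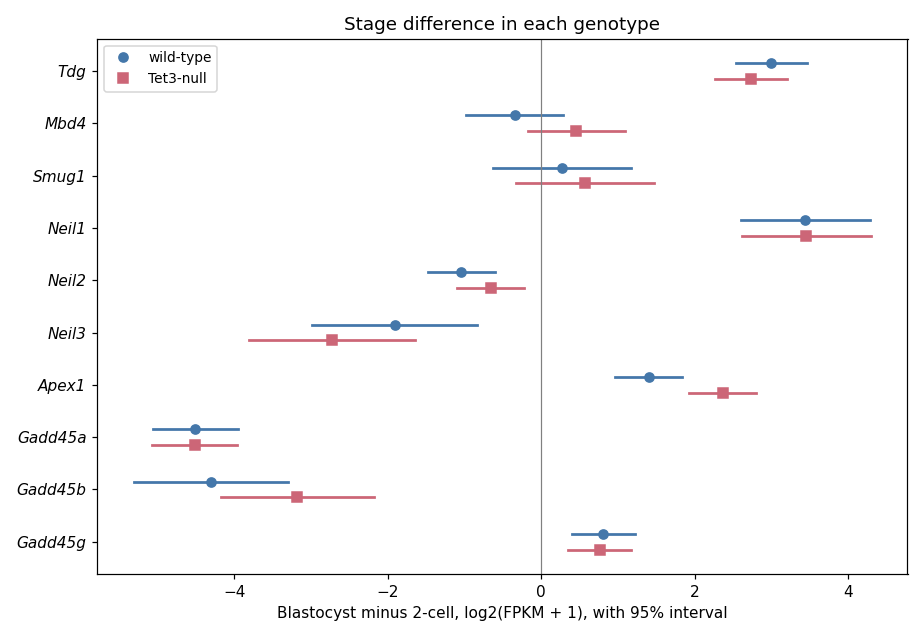
Log2 change of each gene from 2-cell embryo to blastocyst (horizontal axis, difference of log2(FPKM + 1), bars are unadjusted 95% intervals) in wild-type (circles) and Tet3-null (squares). Gadd45a and Gadd45b fell by more than 3 on this scale and Tdg and Neil1 rose by more than 2.7 in both genotypes, and Mbd4 and Smug1 have intervals that include 0.

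The rest of the pathway was followed through 42 other genes in 6 lists, all of which passed the filter. None was called by genotype in limma at either stage or in the difference between stages. At an unadjusted p under 0.05 there were 11 of 42 at the 2-cell stage, 1 of 42 in blastocysts and 6 of 42 in the difference, where 23.7%, 5.46% and 14.4% of all genes tested passed. The median log2 change of the 42 was -0.13 at the 2-cell stage and 0.04 in blastocysts, close to the -0.17 and -0.02 of all genes tested. With stage, 26 rose and 9 fell in wild-type (median 0.86), and 26 rose and 10 fell in Tet3-null (median 0.95), beside medians of -0.08 and 0.09 over all genes. Of all genes tested, 35.8% rose and 38.4% fell in wild-type, while 38.9% rose and 35.1% fell in Tet3-null. Here and in the lists that follow, genes counted as rising or falling are those called at an adjusted limma p of at most 0.05. The count of each list is to be read beside these shares.

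All 5 of the other base excision glycosylases (Ung, Ogg1, Mutyh, Nthl1, Mpg) rose from 2-cell to blastocyst in both genotypes, with a median of 2.40 in wild-type. Of 13 genes of the later steps, 11 rose in wild-type and 12 in Tet3-null, and none was called lower. Hmgb1 went from 619 to 499 FPKM in wild-type, lower without overlap but not called. Among the largest rises were those of Xrcc1, the scaffold of single-strand break repair, from 2.59 to 72.5 FPKM in wild-type, and Lig1, the replicative DNA ligase, from 1.45 to 48.7. The log2 changes were 4.36 and 4.35. These enzymes act after Apex1 in the same route, and Apex1 rose by 1.40 on that scale.

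Of 8 nucleotide excision repair genes linked to Gadd45, 5 rose and 2 fell in wild-type, while 4 rose and 2 fell in Tet3-null. Xpa, the damage-verifying protein, fell from 20.7 to 4.42 FPKM in wild-type (log2 change -2.0). Of 9 Gadd45 partners and stress kinases, 4 rose and 3 fell in each genotype. Of 4 cytosine deaminases, none was called higher, and 2 were called lower in wild-type and 3 in Tet3-null. Apobec2 went from 0.884 to 2.08 FPKM in wild-type, higher without overlap but not called, and from 5.28 to 1.44 in Tet3-null. Apobec1, the editor of apolipoprotein B mRNA, fell from 4.58 to 0.478 FPKM in wild-type (log2 change -1.90). Of 3 genes of uracil nucleotide control, 1 rose and 2 fell in each genotype.

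**Figure D5:**
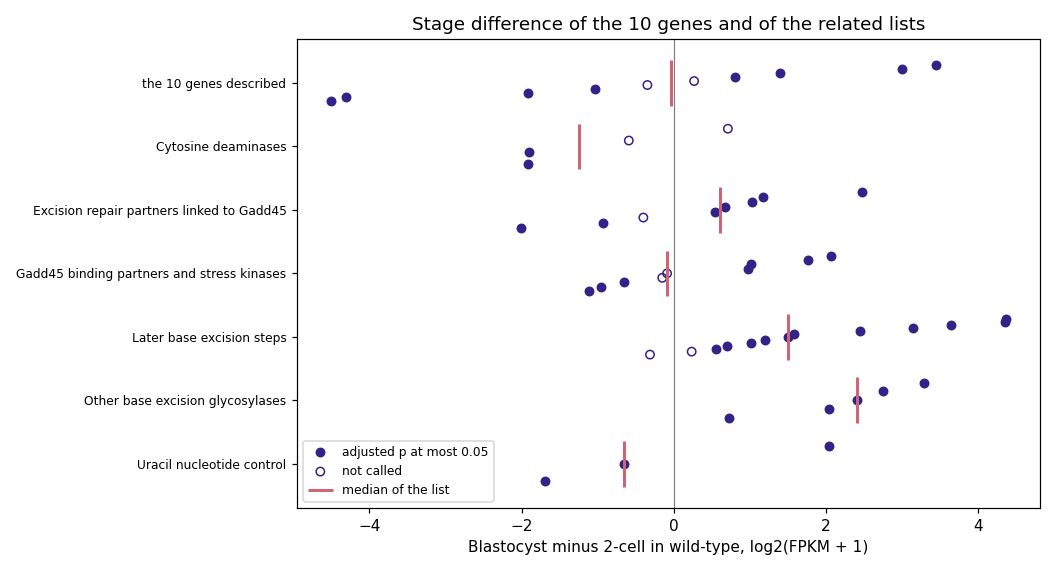
Log2 change from 2-cell embryo to blastocyst in wild-type (horizontal axis, difference of log2(FPKM + 1)) for the 10 genes and the 6 related lists; each point is a gene, filled where called, and the red line is the median of the list. The 5 other glycosylases were all called higher and none of the later base excision genes was called lower, while the 10 genes spread from -4.51 to 3.44.

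The Tet genes, whose products feed the Tdg step, moved apart between the stages. Tet3 fell from 9.16 to 0.708 FPKM in wild-type and Tet2 rose from 1.11 to 55.0, and Tet1 rose from 3.77 to 6.47. The genes nearest to Gadd45g in pattern, by the root mean square difference of centred log2(FPKM + 1) over the 8 libraries, were Gpatch2 at 0.152 and Fech at 0.183. For Gadd45b they were Ccnjl at 0.240 and Tfrc at 0.309, and for Neil3 Bik at 0.261 and Ccdc11 at 0.268. For Apex1 they were Paics at 0.103 and Gdf3 at 0.112, for Mbd4 Utp6 at 0.0846 and Plekhm3 at 0.0995, and for Neil2 Sh3rf3 at 0.0703 and Tnks at 0.0749. These distances describe 8 libraries that differ mostly by stage.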

How the data were processed

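RNA of pooled embryos was measured in 8 libraries, 2 for each of 4 groups taken from the sample titles. cDNA was amplified with a SMARTer low-input kit, per the labels' protocols, and strand was not kept in library preparation. The values are FPKM as deposited, per the submitters' processing notes, which name the build mm9 and the tools Cufflinks 2.2.0, TopHat2 2.0.10 and Bowtie2 2.1.0. Gene annotation and settings: not given in the sources used here.

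The 13549 genes that reached 1 FPKM in 2 or more libraries were tested on log2(FPKM + 1) in limma 3.58.1 (R 4.3.3), with 4 group means, a trended empirical Bayes prior (3.07 degrees of freedom, beside 4 residual ones), two-sided tests and Benjamini-Hochberg adjustment over all genes. Named are the 10 members, the Tet genes, the pathway genes called by genotype, the 3 with the largest rise and the 3 with the largest fall in wild-type, and the 2 nearest profiles of members without overlap at the 2-cell stage; some of these are not reported here. The members and lists were chosen with earlier results of these data known. Promoter sequences are from RefSeq (GRCm38.p6), and overlaps from GENCODE. One of 7 listed 2-cell markers was not matched.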

Additional observations from a re-analysis of the deposited data

How the results depend on the processing

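The fits were repeated in 14 alternatives. They were an offset of 0.1, no filter, median-of-ratios scaling, quantile normalization, a replicate block, the 4 libraries compared alone, and leaving out each of 8 libraries. Every stage change of Neil3, Apex1, Gadd45a, Gadd45b and Gadd45g kept its direction in all 14 and in both genotypes. Those changes were also called in each of the 6 that leave out no library. None of the 14 divided each library by its summed FPKM, which was higher in blastocysts. The rises of Apex1 and Gadd45g were therefore not tested under that scaling. Tdg and Neil1 rose throughout, but the filter fixed that direction, so their calls add nothing to their levels. With stage, 8 members were called in wild-type in each alternative, and 7 to 9 in Tet3-null, where Neil2 was also lost under quantile normalization (adjusted p = 0.0621, limma). By genotype, the 6 alternatives that leave out no library gave 0 members called at either stage, and 0 for the difference between stages where it was fitted. Leaving out 1 library leaves a single library in its group, so the genotype counts of those fits are not given for the members.

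Gadd45g kept its direction by genotype in all 14, with log2 changes of -0.82 to -0.51 at the 2-cell stage and -1.05 to -0.60 in blastocysts. It was not called in the 6 that leave out no library. Scaling moved the 2-cell median of all genes from -0.17 to 0.02 (median-of-ratios) or 0.0037 (quantile). Small uncalled changes turned sign. Tdg at the 2-cell stage was 0.053 under quantile normalization, Neil3 in blastocysts 0.017 with the offset of 0.1, Neil1 in blastocysts 0.015 and 0.038 under median-of-ratios and quantile scaling, and the stage difference of Gadd45a 0.035 with the offset of 0.1.

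When single libraries were left out, these uncalled log2 changes also turned sign. By genotype at the 2-cell stage, Smug1 ran from -0.88 to 0.35 and Gadd45a from -0.063 to 0.29. In blastocysts Smug1 ran from -0.14 to 0.23, Neil1 from -0.50 to 0.43, Neil2 from -0.25 to 0.091, Neil3 from -0.58 to 0.49, Mbd4 from -0.058 to 0.29, Gadd45a from -0.13 to 0.35 and Gadd45b from -0.35 to 0.84. For the difference between stages, Smug1 ran from -0.31 to 0.92, Neil1 from -0.45 to 0.48, Gadd45a from -0.25 to 0.23 and Gadd45g from -0.27 to 0.18. With stage in Tet3-null, Smug1 ran from -0.045 to 1.18. In the genotype effect averaged over stages, Smug1 ran from -0.42 to 0.20, Neil1 from -0.27 to 0.19 and Gadd45a from -0.0096 to 0.23, and Apex1 was 0.039 under median-of-ratios scaling, with Smug1 at 0.0056 and Neil1 at 0.014 under quantile normalization. The cause of these turns was not tested.

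The same-numbered replicates did not deviate together (r across genes of -0.08 to 0.02). The block left 0 members called by genotype and 8 by stage in each genotype. Over all genes, 368 calls at the 2-cell stage became 243 with the offset, 147 and 198 under median-of-ratios and quantile scaling, 31 with the block, 3 in the 4 libraries alone and 8 to 3453 when single libraries were left out. Of those calls 83 were higher and 285 lower; under median-of-ratios scaling 83 of 147 were higher and under quantile normalization 94 of 198. The 19 calls of the difference between stages became 35 without a filter and 13 to 1703 when single libraries were left out. Read totals are unknown, so no counting limit can be set for values near 0.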

Other observations

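Because Gadd45g differed by a similar amount at both stages, its genotype effect was also averaged over the stages in the same limma fit, a comparison chosen after its values were seen. The mean log2 change was -0.80 (SE 0.12, 95% interval -1.09 to -0.51, unadjusted p = 0.00031), lower in 4 of 4 Tet3-null libraries than in the wild-type libraries of the same stage. It did not pass over all genes (adjusted p = 0.0887), where 0.192% of genes were called. Over 13 alternatives it lay between -0.91 and -0.64, and it was not called in those that leave out no library. None of the other 9 members had an unadjusted p under 0.05 in this comparison, and the lowest was 0.0799, for Neil2. The share of all genes at that threshold was not computed, so this count does not set Gadd45g apart.

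Neil1 in blastocysts followed the replicate number rather than the genotype, at 14.1 and 13.6 FPKM in the libraries numbered 1 and at 6.93 and 7.66 in those numbered 2. It was chosen here after its values were seen, and across all genes the replicate numbers of the blastocyst groups showed little shared deviation (r across genes of 0.02).

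The 11 glycosylases of the report summed to between 30.1 and 48.8 FPKM in 2-cell libraries, and to 34.1 at most without Tet3-null replicate 2. In blastocysts they summed to between 112 and 129 FPKM. There Mutyh and Nthl1 were each above every member glycosylase, at 27.7 to 34.7 and 25 to 33.3 FPKM. These genes were named after their values were seen. At the 2-cell stage the largest value of the family was that of Neil3 in Tet3-null replicate 2.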
